A study of Mus musculus with 9 samples.

Results

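*Pou5f1*, *Sox2*, *Sall4*, *Utf1*, *Lin28a* and *Lin28b* were followed through the differentiation of mouse embryonic stem cells (ESCs) with and without the maintenance DNA methyltransferase DNMT1. These 6 genes, of 15074 in the gene table, were taken by their symbols, and earlier results of these data were known when they were chosen. All 6 were listed above 1 FPKM in each of the 9 libraries. FPKM is a read count divided by transcript length and by the size of the library, which makes levels of different genes roughly comparable. Differences are given in log2(FPKM + 1) unless stated otherwise.

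The libraries come from 3 cell lines. WT cells are J1 ESCs. 1KO cells are *Dnmt1*-/- ESCs derived from J1, and 1KO+1CI cells are 1KO ESCs with a transgene for a catalytically inactive DNMT1 under the CAG promoter, so that both mutant lines lack the endogenous enzyme. Each line was sequenced at day 0, when the ESCs grew with LIF and serum on mitomycin C-treated embryonic fibroblasts. It was sequenced again at day 2 and day 4 of differentiation in serum without LIF, after removal of the feeder cells, 1 day as embryoid bodies and further culture as adherent cells. The study made a pair of 1KO+1CI clones and the label does not say which of them was sequenced. There was 1 library per line and day, hence 9 in all, and no difference between 2 single libraries can be set against the spread between cultures. The libraries held about 20100000 to 27900000 counted reads if the smallest step in the FPKM values is 1 read. *Dnmt1* itself, the targeted gene, stood at 48.5 to 80.4 FPKM in the WT libraries, 12.3 to 17.4 FPKM in those of 1KO and 129 to 315 FPKM in those of 1KO+1CI, where the transgene is counted too.

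OCT4, the product of *Pou5f1*, and SOX2 bind DNA side by side at enhancers of pluripotency genes, their own among them, and the level of either has to stay within bounds for ESCs to remain undifferentiated. SALL4 is a zinc-finger factor that binds OCT4 and the NuRD chromatin complex, and UTF1 is a chromatin-bound coactivator that marks undifferentiated cells of the inner cell mass and epiblast. LIN28A and LIN28B are RNA-binding proteins that hold back the maturation of let-7 microRNAs and bind many mRNAs. In the embryo, OCT4 remains high from the inner cell mass into the epiblast, whereas SOX2 recedes from the part of the epiblast that forms mesoderm and endoderm and remains in the neural part.

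In GRCm38 with GENCODE M21, which has the coordinates of mm10, *Pou5f1* lies on chromosome 17 (35506018 to 35510772, plus strand) and *Sox2* on chromosome 3 (34650405 to 34652461, plus strand). *Sall4* lies on chromosome 2 (168748332 to 168767943, minus strand), *Utf1* on chromosome 7 (139943789 to 139945112, plus strand), *Lin28a* on chromosome 4 (134003330 to 134018841, minus strand) and *Lin28b* on chromosome 10 (45376620 to 45486395, minus strand). All 6 are protein-coding, and FPKM was counted over their transcripts. *Sall4* values (such as 41.2033 FPKM in WT at day 4) have finer decimals than those of *Lin28b* (16.519 FPKM in that library). A mean over several transcript entries would give such decimals. How entries of a gene were combined is not given, and comparisons of level between genes depend on it. *Sox2* is within an intron of the noncoding gene *Sox2ot*, which was listed at 0.059 to 0.588 FPKM. Exons of *Pou5f1*, *Sall4* and *Lin28a* overlap exons of *Gm19553*, *Gm14261* and *Gm13061* on the opposite strand. These antisense genes have no row in the table, and the strand setting of the counting is not given, so reads of a gene and its antisense partner cannot be told apart. *Pou5f1* also has processed copies elsewhere in the genome, and how reads with several alignments were counted is not given.

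Since the lines differ in the enzyme that copies CpG methylation, the promoters of 4 of the genes are shown with their CpG sites in capitals. Each window holds 250 bases before and 50 bases after a RefSeq start (GRCm38.p6), which need not be the start in GENCODE. The *Sox2* window ends at 34650044, before the GENCODE gene begins at 34650405. That of *Lin28b* lies inside the gene, whose GENCODE span reaches 45486395. The windows are chr17:35505782-35506081 (plus strand) for *Pou5f1*, chr3:34649745-34650044 (plus strand) for *Sox2*, chr7:139943606-139943905 (plus strand) for *Utf1* and chr10:45470152-45470451 (minus strand) for *Lin28b*, each written 5′ to 3′ on the strand of the gene.
Pou5f1: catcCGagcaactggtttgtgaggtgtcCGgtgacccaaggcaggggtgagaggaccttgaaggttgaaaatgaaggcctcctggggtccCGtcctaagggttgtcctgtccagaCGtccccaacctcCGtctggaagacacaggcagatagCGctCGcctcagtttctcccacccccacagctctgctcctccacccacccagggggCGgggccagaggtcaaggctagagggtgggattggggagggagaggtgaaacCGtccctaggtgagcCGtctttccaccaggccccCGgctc
Sox2: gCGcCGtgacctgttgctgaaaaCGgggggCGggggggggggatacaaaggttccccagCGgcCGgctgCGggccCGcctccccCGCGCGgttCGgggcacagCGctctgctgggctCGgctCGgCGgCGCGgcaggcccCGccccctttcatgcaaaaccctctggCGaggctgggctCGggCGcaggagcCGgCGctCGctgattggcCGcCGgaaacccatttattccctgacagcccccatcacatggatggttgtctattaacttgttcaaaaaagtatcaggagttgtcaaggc
Utf1: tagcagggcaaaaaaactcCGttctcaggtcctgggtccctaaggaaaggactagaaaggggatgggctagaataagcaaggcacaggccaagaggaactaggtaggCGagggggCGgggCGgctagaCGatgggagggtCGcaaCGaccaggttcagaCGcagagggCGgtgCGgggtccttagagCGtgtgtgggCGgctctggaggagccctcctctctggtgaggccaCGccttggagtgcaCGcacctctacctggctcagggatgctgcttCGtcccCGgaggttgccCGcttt
Lin28b: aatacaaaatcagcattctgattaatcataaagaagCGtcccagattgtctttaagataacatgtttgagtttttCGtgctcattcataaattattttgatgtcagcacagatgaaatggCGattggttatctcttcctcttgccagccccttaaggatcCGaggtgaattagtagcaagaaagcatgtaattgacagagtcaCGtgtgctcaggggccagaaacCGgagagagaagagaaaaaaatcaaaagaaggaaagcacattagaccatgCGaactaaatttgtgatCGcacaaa

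The promoter windows of the genes are not alike in CpG content. The *Sox2* window holds 27 CpG sites, more than 84.5% of the 32851 mouse promoter windows, whose median is 7. *Utf1* holds 17, *Pou5f1* 11, *Lin28a* 10 and *Lin28b* 8, and *Sall4* was not matched. A second *Pou5f1* window, at an internal start, holds 6. Methylation of these sites was not analysed here. On either strand, the octamer ATGCAAAT that OCT4 binds is in 0 of these 6 windows and in 1.74% of all windows. At such a share 0 of 6 is the usual outcome, and the windows do not reach enhancers farther from the start. The SOX letters CATTGT are in the *Lin28a* window and the internal *Pou5f1* window (12.6% of all windows). The GC box GGGCGG, which holds a CpG itself, is in the windows of *Sox2*, *Utf1* and *Lin28a* and the first *Pou5f1* window (35.7% of all windows). The nuclear receptor letters AGGTCA are in the first *Pou5f1* window and that of *Sox2* (16.3% of all windows).

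The precursors that the LIN28 proteins bind give a second set of sequences. The mature let-7g of RefSeq is shown with its seed (bases 2 to 8) in capitals, and the let-7g hairpin with the GGAG letters, which the zinc knuckles of LIN28 contact, in capitals.
let-7g-5p: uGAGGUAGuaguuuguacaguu
let-7g hairpin: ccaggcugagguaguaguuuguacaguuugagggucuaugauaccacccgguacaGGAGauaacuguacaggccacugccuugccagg
All 9 let-7 and miR-98 mature 5p sequences in the RefSeq table share this seed, GAGGUAG. The letters GGAG occur in 9 of the 12 let-7 and miR-98 hairpins (75%), and in 44.5% of all 1005 mouse hairpins in that table.

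The 6 genes remained expressed up to day 4 in all 3 lines, at levels that reached from the 100 most abundant genes of the table down to its middle ranks. *Pou5f1* was the highest of the 6 in 9 of 9 libraries (632 to 1008 FPKM) and ranked between 46 and 92 among all genes. *Lin28b* was the lowest in 9 of 9 libraries (8.86 to 16.5 FPKM) and ranked between 4243 and 6477. *Sall4* was the second lowest throughout. *Utf1*, *Sox2* and *Lin28a* lay between, in an order that differed by day and line. *Sox2* was above *Utf1* in WT at day 0 and below it in the other 8 libraries, and *Lin28a* was above *Utf1* in 1KO at day 4 and below it in the other 8. *Sox2* was above *Lin28a* in all 6 libraries of days 0 and 2 and below it in the 3 libraries of day 4.

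**Figure D1:**
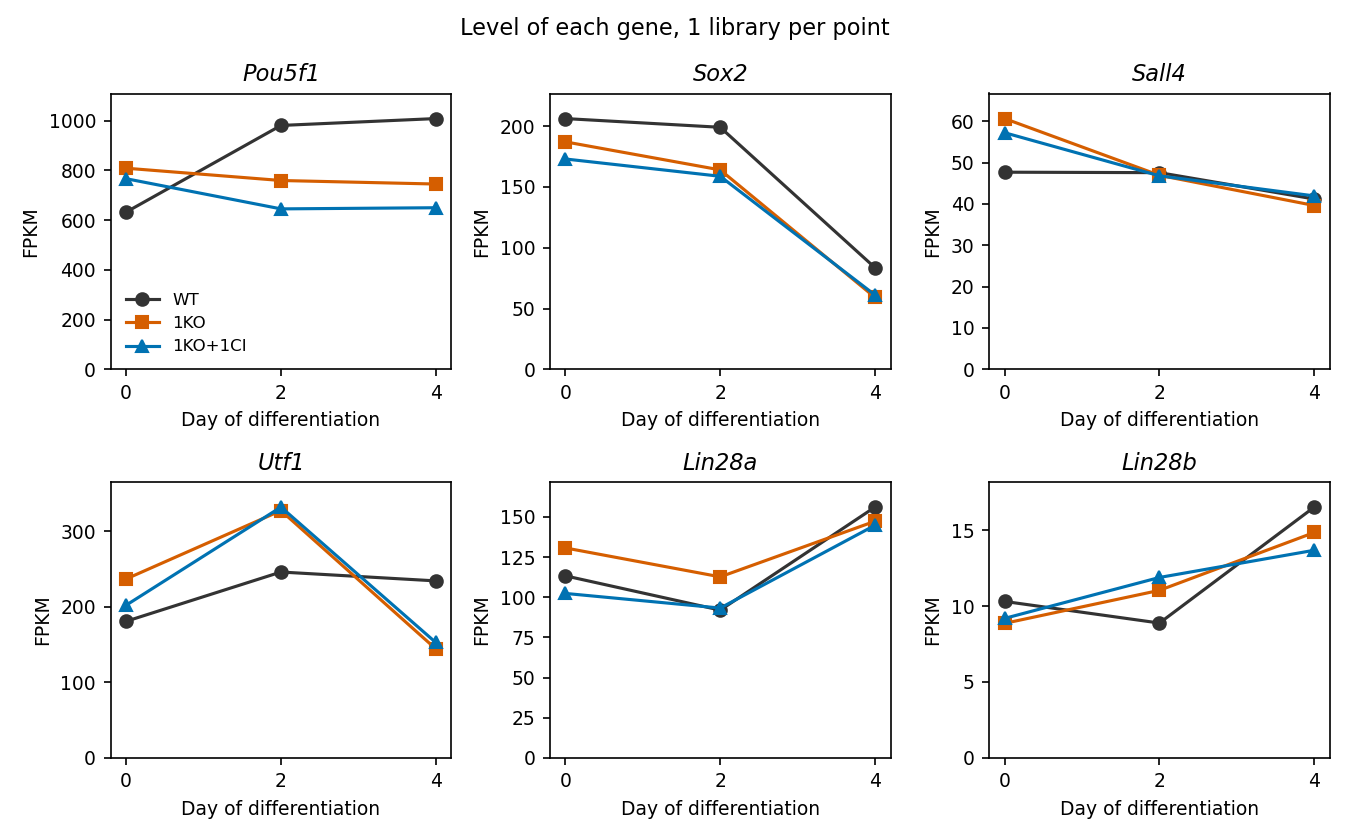
FPKM of the 6 genes (vertical axes, linear from 0) against the day of differentiation in WT, 1KO and 1KO+1CI cells. Each point is 1 library and has no error bar. *Sox2* drops at day 4 in every line, *Pou5f1* is higher in WT than in both mutant lines at days 2 and 4, and *Utf1* is highest at day 2 in each line.

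*Pou5f1* had 632, 980 and 1008 FPKM in WT cells at days 0, 2 and 4. On the same days the 1KO line had 808, 759 and 745 FPKM and the 1KO+1CI line 766, 645 and 650 FPKM. The WT library was the lowest of the 9 at day 0 and the highest of the 9 at day 4, while the 6 mutant libraries lay between 645 and 808. WT had a ratio of day 4 to day 0 of 1.59 (95% interval 1.56 to 1.62), against 0.921 (0.906 to 0.938) for 1KO and 0.848 (0.831 to 0.864) for 1KO+1CI. These exact intervals cover counting error only, not the spread between cultures. In log2 terms WT differed from its day 0 by 0.63 at day 2 and 0.67 at day 4, the 1KO line by −0.09 and −0.12, and the 1KO+1CI line by −0.25 and −0.24. *Pou5f1* was thus above day 0 in WT and below it in mutant cells, by less than 2-fold in any line. The difference of −0.09 in 1KO cells became 0.02 when each library was rescaled to a common sum.

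*Sox2* had 206, 199 and 83.5 FPKM at days 0, 2 and 4 in WT. The 1KO line had 187, 164 and 59.1 FPKM and the 1KO+1CI line 173, 159 and 61.1 FPKM. All 3 day 4 libraries lay below the other 6, and on each day both mutant libraries lay below WT. The ratio of day 4 to day 0 was 0.405 for WT (0.389 to 0.421), 0.316 for 1KO (0.303 to 0.330) and 0.353 for 1KO+1CI (0.338 to 0.369). *Sox2* was the gene of the 6 with the widest range, 3.49-fold over the 9 libraries, which is wider than for 89.3% of the 9729 genes that reached 5 FPKM. The ratio of *Pou5f1* to *Sox2* FPKM was 3.07 to 4.43 at day 0, 4.06 to 4.93 at day 2 and 10.6 to 12.6 at day 4.

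*Sall4* had 47.7, 47.6 and 41.2 FPKM in WT. Levels in 1KO cells were 60.7, 46.9 and 39.6 FPKM, and those in 1KO+1CI cells 57.2, 46.8 and 42.0 FPKM. The 3 lines lay between 46.8 and 47.6 FPKM at day 2 and between 39.6 and 42.0 FPKM at day 4. Its range was the narrowest of the 6, 1.53-fold, and the highest values were those of the mutant lines at day 0.

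*Utf1* had 181, 246 and 234 FPKM in WT. This compares with 237, 328 and 144 FPKM for 1KO and 202, 332 and 153 FPKM for 1KO+1CI. Day 2 was the highest day in each line. Both mutant libraries were above WT at days 0 and 2 and below it at day 4. Between days 2 and 4 the level differed by a factor of 0.952, 0.441 and 0.460 for WT, 1KO and 1KO+1CI. In log2 terms these differences were −0.07, −1.18 and −1.12.

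*Lin28a* had 113, 91.9 and 156 FPKM in WT. The 1KO line had 131, 113 and 147 FPKM and the 1KO+1CI line 102, 93.2 and 145 FPKM. *Lin28b* had 10.3, 8.88 and 16.5 FPKM in WT. Levels in 1KO cells were 8.86, 11.0 and 14.8 FPKM, and those in 1KO+1CI cells 9.19, 11.9 and 13.7 FPKM. For both genes the 3 day 4 libraries lay above the other 6. At day 2 the paralogs parted, since *Lin28a* was below its day 0 level in every line while *Lin28b* was above it in both mutant lines and below it in WT. *Lin28a* outnumbered *Lin28b* 7.85-fold to 14.7-fold in FPKM. *Lin28b* rests on the fewest reads, about 1150 at the least, for which the counting error is at most 2.95% (1 SD).

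**Figure D2:**
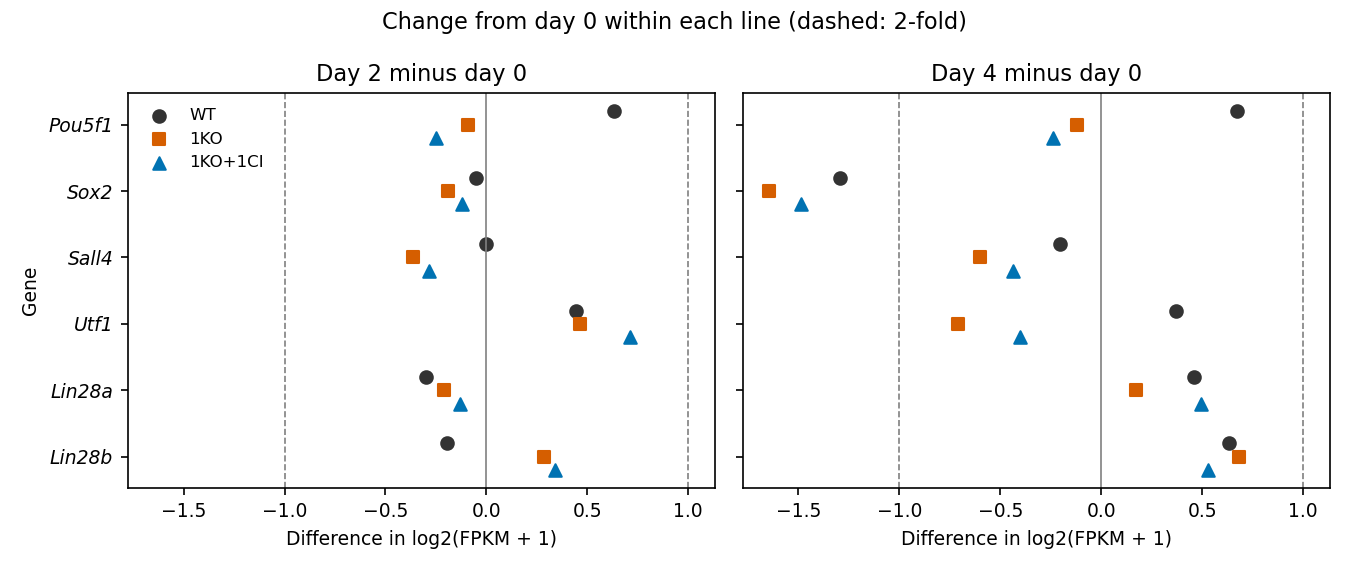
Difference in log2(FPKM + 1) from day 0 (horizontal axes) at day 2 and day 4 for each gene, with 1 point per line and dashed lines at 2-fold. *Sox2* at day 4 is past 2-fold in all 3 lines (−1.29, −1.64 and −1.49 for WT, 1KO and 1KO+1CI), and no other point is.

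Between single libraries, a gene was called when it differed by at least 2-fold, that is by 1 in log2(FPKM + 1). At day 2 against day 0, 0 of the 6 genes were called in any line, where 6.06%, 4.7% and 5.13% of all genes were called for WT, 1KO and 1KO+1CI. At day 4 against day 0, 1 of the 6, *Sox2*, was called in each line, beside 6.31%, 9.31% and 10.4% of all genes. Both comparisons of a line share its day 0 library. The median difference of the 6 genes at day 4 was 0.42, −0.36 and −0.32 for WT, 1KO and 1KO+1CI, and that of all genes was −0.0068, 0.0086 and 0.027. In WT 4 of the 6 genes were higher at day 4 (*Pou5f1*, *Utf1*, *Lin28a* and *Lin28b*), and in both mutant lines 2 were (*Lin28a* and *Lin28b*).

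Between the lines no gene of the 6 reached 2-fold on any day. For 1KO against WT, 0 of 6 were called, beside 3.79% of all genes at day 0, 2.26% at day 2 and 2.26% at day 4. For 1KO+1CI against WT, 0 of 6 were called, beside 4.51%, 3.54% and 4.03% of all genes. For 1KO+1CI against 1KO, 0 of 6 were called, beside 0.418%, 0.338% and 0.915%. At shares of this size fewer than 1 call is to be had among 6 genes. At day 0, *Utf1* (0.39), *Pou5f1* (0.35), *Sall4* (0.34) and *Lin28a* (0.20) were higher in 1KO than in WT, and *Sox2* (−0.14) and *Lin28b* (−0.20) were lower. At day 4 all 6 were lower in 1KO than in WT, from −0.70 for *Utf1* to −0.05 for *Sall4*, with a median of −0.29 against 0.0047 for all genes. *Sall4* changed sign, to 0.0035, when the libraries were rescaled to a common sum. In 1KO+1CI against WT at day 4, 5 of the 6 were lower, led by *Pou5f1* (−0.63) and *Utf1* (−0.61). *Lin28a* (−0.11) was among the 5 and became 0.0051 under that rescaling. Between the mutant lines the differences ran from −0.35 for *Lin28a* at day 0 to 0.10 for *Lin28b* at day 2.

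**Figure D3:**
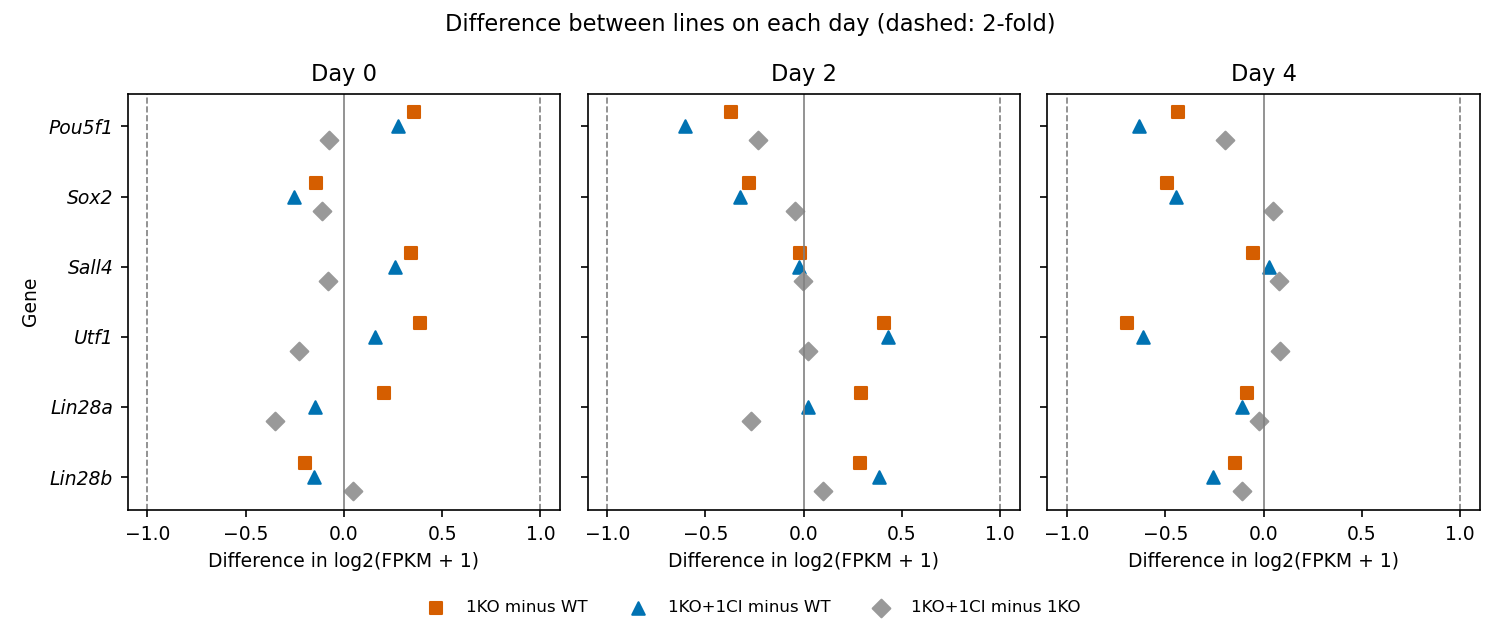
Difference between lines in log2(FPKM + 1) (horizontal axes) at days 0, 2 and 4 for each gene, 1 point per comparison of 2 libraries, with dashed lines at 2-fold. All points lie between −0.70 and 0.43, and at day 4 every gene except *Sall4* lies below 0 in both comparisons with WT, though *Lin28a* in 1KO+1CI becomes 0.0051 with rescaling to a common sum.

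To test effects shared across libraries, limma was fitted to log2(FPKM + 1) of all 15074 genes with terms for line and day (4 residual degrees of freedom), and p-values were adjusted by the Benjamini-Hochberg method. The residual spread in this fit is whatever does not add up from line and day, including line-specific responses, and is not a spread between replicates. The mutant lines share their origin, so the 3 lines are not independent cultures of one kind. Day 4 differed from day 0 for 4 of the 6 genes at an adjusted p under 0.05, beside 23.6% of all genes. *Sox2* fell by 1.47 (SE 0.089, limma adjusted p = 0.000176), and *Sall4* fell by 0.42 (SE 0.098, limma adjusted p = 0.0205). *Lin28b* rose by 0.61 (SE 0.14, limma adjusted p = 0.0197) and *Lin28a* by 0.38 (SE 0.097, limma adjusted p = 0.0274). All 4 had the same direction in 3 of 3 lines. *Pou5f1* (0.11, SE 0.19, limma adjusted p = 0.716) and *Utf1* (−0.25, SE 0.21, limma adjusted p = 0.436) had opposite directions in WT and the mutant lines, which this fit counts as residual spread. Without the 1KO or the 1KO+1CI line, 1 of the 6, *Sox2*, kept an adjusted p under 0.05, at 0.0163 and 0.00951. Of all 15074 genes, 445 and 899 passed in these fits. The adjusted p then lay between 0.0959 and 0.222 for *Sall4*, *Lin28a* and *Lin28b*. Their coefficients without 1KO and without 1KO+1CI were −0.32 and −0.40 for *Sall4*, 0.48 and 0.32 for *Lin28a* and 0.58 and 0.66 for *Lin28b*. Without WT, *Utf1* at day 4 was −0.56 with a limma adjusted p of 0.00819, where 4848 of 15074 genes passed. That fit had 2 residual degrees of freedom, and its 1KO+1CI line was made from 1KO.

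**Figure D4:**
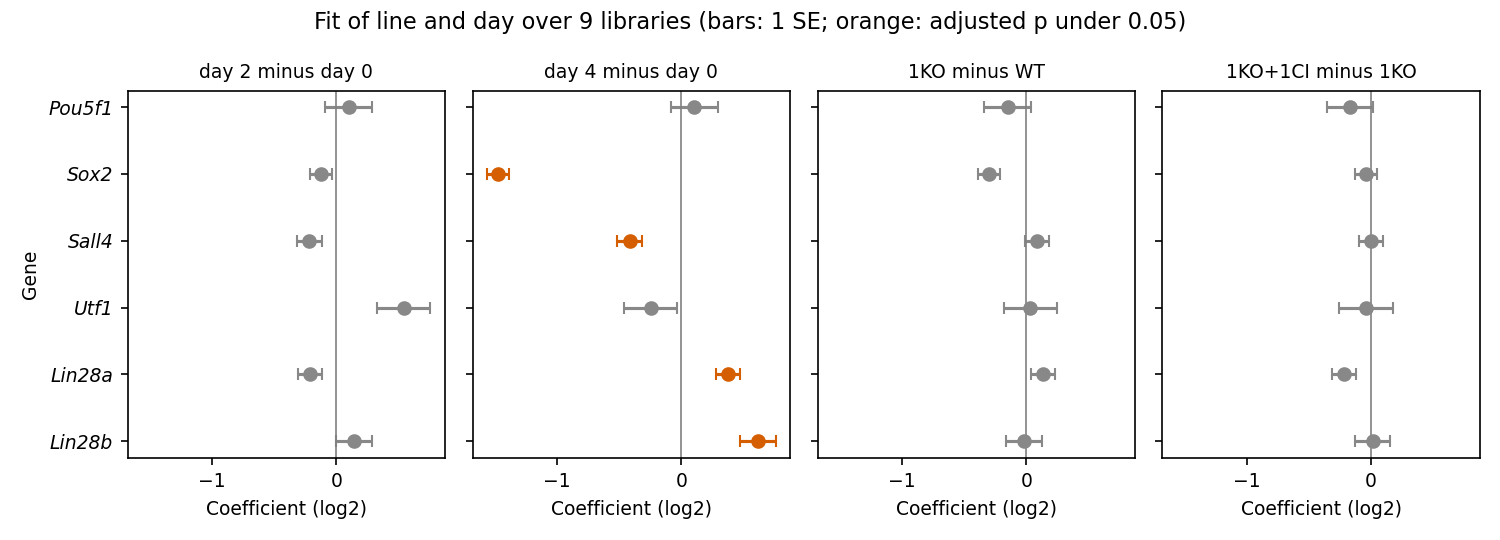
Coefficients of the fit of line and day over 9 libraries (horizontal axes, log2 units) for the 6 genes, with bars of 1 SE. Orange points have a limma adjusted p under 0.05, and the 4 orange points, *Sox2*, *Sall4*, *Lin28a* and *Lin28b*, are all in the panel of day 4 minus day 0.

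Day 2 did not separate from day 0 in the fit for any of the 6 genes (0 of 6, beside 15.4% of all genes), and the largest coefficient was that of *Utf1* (0.54, SE 0.21, limma adjusted p = 0.126). For 1KO against WT, 0 of 6 passed, beside 1.86% of all genes. *Sox2*, which was lower in 1KO on each of 3 days, had a coefficient of −0.30 (SE 0.089, limma adjusted p = 0.156), and its unadjusted p was 0.00917. For 1KO+1CI against 1KO, 0 of 6 passed, beside 0.00663% of all genes, which is 1 gene. The lowest and highest coefficients there were −0.21 for *Lin28a* and 0.012 for *Lin28b*. At an unadjusted p under 0.05 the fit called 4833 genes at day 2, 5672 at day 4, 2267 between 1KO and WT and 564 between 1KO+1CI and 1KO.

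In bulk RNA, fewer cells that express a gene and less RNA per cell cannot be told apart. Markers of the feeder cells were highest at day 0. The summed FPKM of the 9 fibroblast markers measured, of 10 listed, was 100 to 220 in the 3 day 0 libraries, lowest in WT, and 13.7 to 31.2 in the 6 libraries of days 2 and 4. *Col1a1*, a collagen of fibroblasts, had 39.0 to 76.0 FPKM at day 0 and 3.76 to 9.86 FPKM later. The part of these cells in the comparisons with day 0 was not tested. Neural progenitors also use *Sox2*, and 6 of 9 listed markers were measured, with a sum of 15.5 to 30.8 FPKM at day 0 and 28.3 to 49.0 FPKM at day 4. At day 4 most of it was *Nes*, an intermediate filament gene, while *Sox1* lay between 0.251 and 1.94 FPKM over the 9 libraries. *Pax6*, a homeobox factor of neural progenitors, was past 2-fold lower at day 4 than at day 0 in each line (−1.38, −1.58 and −1.23 for WT, 1KO and 1KO+1CI), and the medians of the list were 0.47, −0.22 and −0.12.

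Germ cells also use *Pou5f1*, *Sall4* and *Lin28a*. The summed FPKM of 8 germ cell markers was 104 to 176 at day 0, 52.4 to 63.9 at day 2 and 30.6 to 47.9 at day 4. At day 4 against day 0, 5, 5 and 4 of the 8 were past 2-fold lower for WT, 1KO and 1KO+1CI, led by *Dppa3* (mean −3.66), and 0, 1 and 1 were past 2-fold higher. The 1 was *Dnd1*, an RNA-binding factor of germ cells, at 1.14 in 1KO and 1.20 in 1KO+1CI, and *Ddx4* differed by 0.89 in WT. *Dazl* had 1.93 FPKM in WT at day 0, against 9.77 and 13.6 FPKM in the 1KO and 1KO+1CI lines. *Prdm14*, which is active in naive ESCs and germ cells, was at 0.037 to 0.23 FPKM at day 4. All 8 primitive endoderm markers were measured and summed at day 4 to 8.51, 16.2 and 25.1 FPKM for WT, 1KO and 1KO+1CI. In the same libraries 6 of 8 listed trophoblast markers (*Cdx2* and *Elf5* have no row) summed to 137, 200 and 330 FPKM, nearly all of it the keratins *Krt8* and *Krt18*. At day 0 these lists summed to 6.75 to 12.7 FPKM and 71.3 to 230 FPKM. The part of such cells in the day 4 differences was not tested.

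Genes described as carrying sites for OCT4 and SOX2 did not follow a single course. Of 10 listed, 9 were measured, of which 4 were past 2-fold lower at day 4 in WT and 5 in each mutant line, and none was past 2-fold higher. Of all genes 6.31%, 9.31% and 10.4% were past 2-fold in either direction in these comparisons, and the counts of the other lists at day 4 against day 0 stand beside the same shares. Their median was −0.74, −1.14 and −1.22 for WT, 1KO and 1KO+1CI. *Fbxo15*, an F-box gene of ESCs, was lowest against day 0, with 92.1, 87.8 and 135 FPKM at day 0 and 12.8, 5.83 and 9.62 FPKM at day 4 in WT, 1KO and 1KO+1CI cells. *Tdgf1*, a coreceptor of Nodal, was at 286 to 347 FPKM at day 0 and 312 to 414 FPKM at day 4, the highest mean difference of the list.

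At day 4, 1 of the 9 targets was past 2-fold higher and 3 lower in 1KO than in WT, beside 2.26% of all genes, and 1 was higher and 2 lower in 1KO+1CI than in WT, beside 4.03%. *Nanog*, a homeobox factor of naive and primed pluripotency, had 163, 89.5 and 56.8 FPKM at days 0, 2 and 4 in WT. This compares with 205, 58.8 and 171 FPKM for 1KO and 232, 40.9 and 157 FPKM for 1KO+1CI. In both mutant lines it was lower at day 2 than at days 0 and 4. *Fgf4*, a growth factor that drives ERK signalling in ESCs, had 21.4 FPKM at day 4 in WT, against 6.11 and 5.14 FPKM in the 1KO and 1KO+1CI lines. The log2 difference between 1KO and WT was 1.58 for *Nanog* and −1.66 for *Fgf4*. *Dppa4*, a nuclear factor of pluripotent cells, had 71.6 FPKM in WT at day 4, against 31.3 and 28.9 FPKM in the mutant lines. *Fbxo15* was also past 2-fold lower in 1KO (−1.02).

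The paralogs of *Sox2*, *Pou5f1* and *Sall4* give the family setting. Among 16 other SOX genes, beside the shares of all genes above, 1 was past 2-fold higher and 3 lower at day 4 in WT. In 1KO 3 were higher and 2 lower, and in 1KO+1CI 3 and 3, with medians from −0.13 to −0.04. *Sox3*, which is of the same subgroup as *Sox2*, was highest against day 0. It had 7.32, 2.64 and 29.2 FPKM in WT. The 1KO line had 5.43, 9.11 and 24.5 FPKM and the 1KO+1CI line 3.92, 10.8 and 20.2 FPKM, so that it was above day 0 at day 2 in both mutant lines and below it in WT. *Sox15*, an ESC factor that can pair with OCT4, was lowest, with 12.6 to 14.0 FPKM at day 0 and 1.46 to 2.14 FPKM at day 4. *Sox2* remained the SOX gene with the highest level in each of the 9 libraries.

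Among 10 other POU genes, *Pou3f1* alone was past 2-fold higher at day 4 in each line. *Pou4f2* was past 2-fold lower in 1KO, from 1.055 to 0.014 FPKM, and the medians ran from −0.04 to 0.07. The added 1 damps differences at such low levels. *Pou3f4* in WT, at 0.020 and 0.622 FPKM at days 0 and 4, was not called. *Pou3f1* encodes OCT6, a factor of the epiblast. It had 14.5, 21.7 and 63.0 FPKM in WT. Levels in 1KO cells were 13.2, 67.5 and 42.1 FPKM, and those in 1KO+1CI cells 10.6, 78.2 and 48.5 FPKM, so that the mutant lines were highest at day 2 and WT was highest at day 4. In the SALL family, *Sall1* was at 56.9, 65.5 and 38.8 FPKM in WT. This compares with 32.9, 43.5 and 20.0 FPKM for 1KO and 34.6, 45.2 and 17.5 FPKM for 1KO+1CI. *Sall2* was at 9.34, 8.05 and 28.9 FPKM in WT. The 1KO line had 3.87, 18.4 and 23.3 FPKM and the 1KO+1CI line 3.76, 24.0 and 19.2 FPKM. *Sall3* lay between 0.595 and 5.56 FPKM. *Sall1* was above *Sall4* in 2 of 9 libraries, those of WT at days 0 and 2. Of the 3 paralogs, *Sall2* alone was past 2-fold higher than day 0 at day 4 in all 3 lines.

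**Figure D5:**
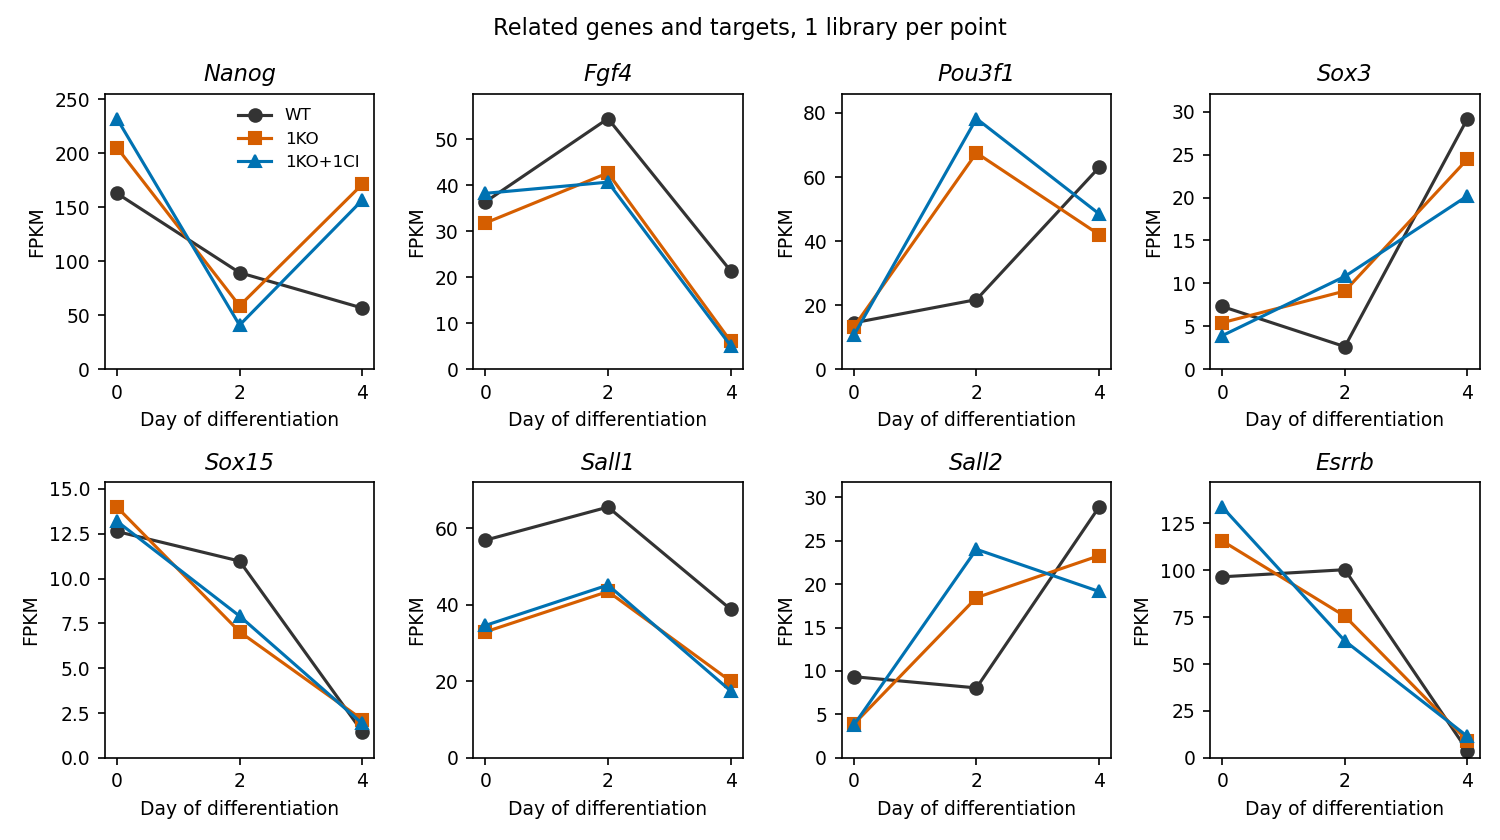
FPKM (vertical axes, linear from 0) of 8 genes related to the 6 by family or by regulation, against the day of differentiation in WT, 1KO and 1KO+1CI cells, 1 library per point. *Nanog* at day 4 is at 56.8 FPKM in WT and at 171 and 157 FPKM in the mutant lines. At day 2, *Sall2* is above day 0 in the mutant lines and below it in WT. *Pou3f1* is then above day 0 in all 3 lines, by 0.55, 2.27 and 2.77 in log2 terms for WT, 1KO and 1KO+1CI.

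The 12 subunits of NuRD that were measured stayed within 2-fold in every comparison of day 4 with day 0 and of the lines at day 4. Their medians at day 4 against day 0 lay between −0.14 and 0.0048. The histone-binding subunit *Rbbp7* was highest between 1KO and WT at day 4 (0.61) and *Gatad2a*, a bridging subunit, was lowest (−0.44). Of 10 nuclear receptors that act on *Pou5f1*, 2 were past 2-fold lower at day 4 in WT and 3 in each mutant line, and 0 in WT and 1 in each mutant line were higher. *Esrrb*, an activator in naive ESCs, had 96.5 to 134 FPKM at day 0 and 3.81 to 11.4 FPKM at day 4. *Nr6a1*, which encodes the *Pou5f1* repressor GCNF, had 16.9, 19.1 and 22.8 FPKM in WT. Levels in 1KO cells were 13.0, 21.6 and 29.8 FPKM, and those in 1KO+1CI cells 10.5, 21.4 and 34.5 FPKM.

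For the LIN28 genes, the machinery that makes and degrades let-7 was set beside its targets. None of 14 measured processing genes was past 2-fold at day 4 against day 0 in any line, where the shares of all genes would give about 1, with medians from −0.21 to 0.091. *Prkra*, a partner of Dicer, had the highest mean difference (0.58) and *Trim71*, which is itself a let-7 target, the lowest (−0.49). Of 19 let-7 targets outside the 6 genes, 0 were past 2-fold higher and 1 lower at day 4 in WT, and 2 were higher and 2 lower in each mutant line. Their medians were 0.028, 0.082 and 0.38 for WT, 1KO and 1KO+1CI. *Nr6a1* had the highest mean difference (1.06) and the cyclin gene *Ccnd2* the lowest (−1.28), with 8.90 FPKM in WT and 27.6 and 33.4 FPKM in the mutant lines at day 0. None of 13 let-7 loci has a row in the gene table, and let-7 levels were not analysed here.

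Between the lines at day 4, the members of each list that lay farthest apart were as follows, as log2 differences. For 1KO against WT the SOX genes ran from −0.63 (*Sox10*) to 0.35 (*Sox15*), the POU genes from −0.57 (*Pou3f1*) to 0.24 (*Pou6f1*), and the SALL genes from −0.92 (*Sall1*) to 1.02 (*Sall3*). The nuclear receptors ran from −0.81 (*Rarg*) to 1.08 (*Esrrb*), the processing genes from −0.49 (*Drosha*) to 0.23 (*Ago4*), and the let-7 targets from −0.65 (*Mycn*) to 0.90 (*Arid3b*). Fibroblast markers ran from −0.51 (*Col3a1*) to 0.64 (*Dcn*), neural markers from −1.31 (*Neurod1*) to 0.033 (*Fabp7*), and germ cell markers from −0.35 (*Ddx4*) to 1.20 (*Dnd1*). Primitive endoderm markers ran from −0.39 (*Gata4*) to 1.30 (*Cubn*) and trophoblast markers from 0.18 (*Tfap2a*) to 1.24 (*Plet1*).

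For 1KO+1CI against 1KO at day 4 the members ran from −0.40 (*Tdgf1*) to 0.64 (*Fbxo15*) for the OCT4 and SOX2 targets, from −0.50 (*Sox12*) to 0.87 (*Sox17*) for the SOX genes, from −0.16 (*Pou2f2*) to 0.38 (*Pou6f1*) for the POU genes and from −0.27 (*Sall2*) to 0.26 (*Sall3*) for the SALL genes. NuRD subunits lay between −0.29 (*Rbbp4*) and 0.17 (*Mbd2*), and nuclear receptors between −0.11 (*Rxrb*) and 0.29 (*Esrrb*). Processing genes lay between −0.42 (*Prkra*) and 0.26 (*Tarbp2*), and let-7 targets between −0.47 (*Igf2bp2*) and 0.40 (*Ccnd2*). Of the marker lists, fibroblast genes lay between −0.30 (*Thy1*) and 1.19 (*Col1a1*), neural genes between −0.098 (*Fabp7*) and 0.95 (*Neurod1*), and germ cell genes between −0.56 (*Dnd1*) and 0.38 (*Prdm1*). Endoderm genes lay between 0.015 (*Foxa2*) and 0.87 (*Sox17*), and trophoblast genes between 0.053 (*Hand1*) and 0.96 (*Krt8*). Over the days, with the mean of the 3 lines at day 4 against day 0, fibroblast genes ran from −3.53 (*Col3a1*) to −1.08 (*Pdgfrb*), endoderm genes from −0.45 (*Gata6*) to 1.20 (*Foxa2*) and trophoblast genes from −0.68 (*Hand1*) to 0.59 (*Krt18*). The NuRD subunit *Mta3* was lowest of its list (−0.55).

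The genes whose log2 levels ran most like each of the 6 over the 9 libraries were sought among 3378 genes that reached 5 FPKM and ranged by at least 2-fold. These correlations describe 9 libraries that share lines and days. For *Sox2* they were *Gpa33* (r = 0.992), *Triml2* (r = 0.991) and *Klf2* (r = 0.990). *Klf2*, a Krüppel-like factor of naive ESCs, had 161, 158 and 16.6 FPKM in WT at days 0, 2 and 4. For *Sall4* they were *Rnd1*, *Tmem64* and *Rab27a* (r from 0.973 to 0.995), and for *Utf1* they were *Nr1d1*, *Cbr3* and *Cgnl1* (r from 0.929 to 0.932). For *Lin28a* they were *Gstt1*, *Bok* and *Thoc7* (r from 0.931 to 0.941), and for *Lin28b* *Jph1*, *Nme3* and *Fam131b* (r from 0.977 to 0.982). *Pou5f1* had the least close neighbours, with *Mir7646* (2.73 to 10.7 FPKM) at 0.925, *Rbp7* at 0.786 and *G3bp2* at 0.780. *Pou5f1*, *Sall4*, *Lin28a* and *Lin28b* themselves ranged by less than 2-fold, so genes with as narrow a range were not searched. *G3bp2* had 80.9, 161 and 169 FPKM in WT and 109 to 147 FPKM in the mutant lines. Among the 6 themselves, *Sox2* ran with *Sall4* (r = 0.750) and against *Lin28b* (r = −0.865), and *Lin28a* ran with *Lin28b* (r = 0.713). *Pou5f1* had r between 0.0107 and 0.207 with each of the other 5.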

How the data were processed

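RNA-seq of WT, 1KO and 1KO+1CI cells at days 0, 2 and 4 was analysed from the gene table deposited by the authors, 1 library per condition. To make these FPKM values, the authors took adapters off with Trim Galore, aligned to mm10 using HISAT2, converted alignments with SAMtools, and used HOMER (analyzeRepeats.pl) for counting and normalization. Strand setting, annotation release, tool versions and the treatment of multiple alignments were not given in the sources used here. Of 15095 entries, 21 without a usable symbol were left out. Columns were assigned by genotype and day, though that of the transgenic line has a further number. The repeat table was not used here. RNA was enriched on oligo(dT) beads.

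The 6 genes and all gene lists were chosen with earlier results of these data known. Named besides the 6 are, per gene, the 3 most correlated genes (at least 5 FPKM in some library and a 2-fold range), every measured member of lists of up to 3 genes, and of longer lists the extremes at day 4 (mean over the lines against day 0, 1KO against WT, and 1KO+1CI less 1KO). Further members, among them *Sox1*, *Prdm14*, *Dazl*, *Dppa4*, *Cdx2* and *Elf5*, were named after their values were seen.

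Depth was recovered from the step of FPKM values in genes with 1 transcript. Exact 95% (Clopper-Pearson) intervals of ratios treat steps as reads and cover counting error only. Single libraries were compared without a test. Line and day were fitted additively with limma 3.58.1 in R 4.3.3 (eBayes with trend, Benjamini-Hochberg over 15074 genes). The recovery of depth and the fit were also run on simulated data. The simulation for the fit held no line-specific responses, so it does not check p-values where the lines respond differently. Alternatives were other pseudocounts (0.1 and 0.01), leaving out genes that never reached 1 FPKM, rescaling to a common sum (TPM), median-ratio scaling, eBayes without trend, and leaving out each line or day. The remaining steps used Python 3.11.15 (scipy 1.17.1, numpy 2.4.6, pandas 2.3.3, matplotlib 3.10.9).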

Additional observations from a re-analysis of the deposited data

Results flagged for a closer look

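Among the genes followed, at day 2 or day 4, WT moved one way from day 0 and both mutant lines the other in 4 cases. The difference between the lines was not tested in any of them, since there is 1 library per condition. The share of all genes with such a split was not computed. Whether 4 cases are more than other genes would give therefore cannot be said. The values are log2 differences for WT, 1KO and 1KO+1CI, in this order. *Pou5f1* had 0.63, −0.09 and −0.25 at day 2, where the sign of 1KO turned under rescaling to a common sum, and 0.67, −0.12 and −0.24 at day 4. *Lin28b* showed the reverse order at day 2, with −0.19, 0.29 and 0.34. *Utf1* had 0.37, −0.71 and −0.40 at day 4.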

How the results depend on the processing

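Among the 6 genes, the counts past 2-fold were the same in all 15 comparisons under both other pseudocounts, rescaling to a common sum and median-ratio scaling. Of 108 single differences, 9 changed sign under a scaling, all of them from values below 0.11 in size. In the fit, the number of the 6 genes with an adjusted p under 0.05 changed only when a line was left out. At day 4 against day 0 it went from 4 to 1 without the 1KO line, to 1 without the 1KO+1CI line and to 5 without WT, and at day 2 from 0 to 2 without WT (*Utf1* and *Sall4*). Without WT, 4848 of 15074 genes were called at day 4 and 2821 at day 2. Each of these fits has fewer libraries (2 residual degrees of freedom). Over all genes, the counts past 2-fold ran from 51 to 1563, from 481 to 2989 with a pseudocount of 0.1 and from 852 to 3450 with 0.01, which weigh low values more. Fitted calls over all genes at day 4 went from 3554 to 445 without 1KO and 899 without 1KO+1CI, and at day 2 from 2328 to 29 and 242. Those for 1KO against WT went from 281 to 9, 2 and 14 without day 0, 2 and 4. The 1 gene called between 1KO+1CI and 1KO was lost without day 0 or day 4. With 1 library per line and day there were no replicates to pair. The fit with a line term compares days within each line. *Gapdh*, of 7 reference genes, ranged from 7.75 to 168 FPKM (4.25 for 1KO against WT at day 4, −3.63 for 1KO+1CI against 1KO), and the other 6 stayed within 2-fold there (*Hprt* was lowest in the former at −0.34) and at day 4 against day 0. Lowly expressed relatives of the 6 genes rest on few reads.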
